A study of Mus musculus with 93 samples.

Results

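Keratins are the intermediate filament proteins of epithelial cells, and 5 keratin genes that mark the layers of the epidermis were followed here through 93 RNA libraries of sorted mouse macrophages and their progenitors. The genes were chosen by name, as Krt5, Krt14, Krt15, Krt1 and Krt10, and all 5 were found among the 14181 genes measured. The table held values for 12 keratin genes in all. Keratin filaments form from a type II and a type I protein together. Krt5 (type II) and Krt14 (type I) are the pair of the dividing basal layer of the epidermis, Krt15 is a type I keratin of basal cells and of the hair follicle bulge, and Krt1 (type II) and Krt10 (type I) are the pair that cells switch to when they leave the basal layer. Macrophages are not known for these genes, while Langerhans cells, the macrophage-like cells of the epidermis, sit between keratinocytes.

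The study sampled EMP (erythro-myeloid progenitors, 6 libraries), pMac (premacrophages, 13 libraries) and Mac (macrophages, 74 libraries) with SMART-Seq2, which copies whole polyA transcripts from few cells. The cells were sorted, with no gates given. No genotype, strain, allele or treatment is named in the sources used here, so groups differ by cell type, tissue and age. Skin is represented by 11 Mac libraries, of embryonic days E14.5 (n = 2) and E18.5 (n = 2) and postnatal days P2 (n = 3), P8 (n = 2) and P21 (n = 2). The other tissues at the same ages are brain, kidney, liver and lung, with 37 Mac libraries, and the other 45 libraries are EMP of E9 and E10.25, pMac of E9.5 and E10.25 and Mac of E10.25 to E12.5. The replicates include technical and biological ones without saying which is which, so the spread behind each p-value may in part be technical.

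Levels are log2 values that the authors had normalized, and the depth behind them is unknown because no counts were used. A floor of 5.37, set above the noise band of every library, was the limit of detection. The number of transcripts above it ranged from 14438 to 25195, and in skin from 20485 to 24317. In 9 libraries, none of them from skin, fewer than 18000 transcripts did. The libraries were also split into 2 sets by small offsets in their lowest values. Those of the smaller set share such offsets (median r 0.514), and those of the larger set hardly do (median r 0.0322). P8 replicate 1 and P21 replicate 2 of skin were in the smaller set.

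The labelled cell type was checked against marker genes. Csf1r, the receptor that macrophages need for survival, ranged from 14.28 to 15.56 over the 11 skin libraries, and Adgre1, which encodes the macrophage surface protein F4/80, from 9.98 to 13.25. Cd207, which encodes the Langerhans cell protein langerin, was at the floor in all E14.5 and E18.5 skin libraries and ranged from 11.60 to 13.39 at P2, from 14.82 to 15.37 at P8 and from 14.55 to 14.85 at P21. Fcgr1, a macrophage Fc receptor, was at the floor in the skin libraries of P8 and P21. The late skin libraries thus carry Langerhans cell genes at high levels and lack Fcgr1. Of 14 listed macrophage genes, 10 to 12 were above the floor in each of them. On average, 72.7% of all genes were above the floor in a skin library.

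The 5 genes lie in 2 keratin clusters of the mouse genome, with coordinates from GENCODE M21 on the mm10 build, and all are protein-coding and on the minus strand. Krt5 (ENSMUSG00000061527.7) lies at chr15:101707070-101712898 and Krt1 (ENSMUSG00000046834.7) at chr15:101845426-101850794. The type I genes lie on another chromosome, Krt10 (ENSMUSG00000019761.10) at chr11:99385254-99389364, Krt15 (ENSMUSG00000054146.8) at chr11:100131758-100135928 and Krt14 (ENSMUSG00000045545.8) at chr11:100203162-100207548. Krt5, Krt1 and Krt10 each have 1 transcript in the table. Krt14 and Krt15 have 2 each, a coding transcript and a shorter one without a coding sequence, which is a processed transcript for Krt14 and retains an intron for Krt15.

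RefSeq promoter windows of 300 bases on the GRCm38.p6 build, most of each before the annotated start, are shown for 1 basal and 1 suprabasal member to let their control regions be read side by side. The capitals mark an ATAAAA that begins 29 bases before the start of Krt5 (chr15:101712856-101713155, minus strand) and a TATAAA that begins 26 bases before the start of Krt10 (chr11:99389315-99389614, minus strand).
Krt5: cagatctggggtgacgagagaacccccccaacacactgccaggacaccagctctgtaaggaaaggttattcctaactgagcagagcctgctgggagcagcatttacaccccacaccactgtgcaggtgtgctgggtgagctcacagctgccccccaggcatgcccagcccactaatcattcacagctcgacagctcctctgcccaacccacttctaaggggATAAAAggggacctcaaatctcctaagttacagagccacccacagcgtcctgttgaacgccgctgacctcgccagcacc
Krt10: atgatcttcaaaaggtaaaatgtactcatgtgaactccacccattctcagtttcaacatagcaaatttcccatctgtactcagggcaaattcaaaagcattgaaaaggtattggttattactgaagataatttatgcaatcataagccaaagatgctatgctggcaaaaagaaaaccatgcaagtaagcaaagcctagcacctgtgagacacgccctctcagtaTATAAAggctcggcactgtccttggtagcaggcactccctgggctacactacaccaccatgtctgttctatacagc
Of 32851 promoter windows of the same length, 18.47% hold ATAAAA and 13.6% hold TATAAA, on either strand. GCCNNNGGC, TGACTCA and the p53-family core motif had no match in these windows, and 16.6%, 5.20% and 0.575% of all windows hold them. The RefSeq window of Krt14 lies at an internal start, that of the short transcript, and is not printed.

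Close relatives within the 2 clusters share stretches of sequence, which matters for how far a read can be assigned to 1 gene. Of all windows of 50 bases in the coding transcript, 14.4% for Krt14 and 12.2% for Krt5 are also found in another annotated gene on either strand, against 2.44% for Krt10, 0.666% for Krt15 and 0 of 2406 windows for Krt1. The longest run that Krt14 shares with another keratin, 134 bases in common with Krt16 (bases 399 to 532 of the coding transcript of Krt14), is printed in capitals with 10 flanking bases on each side.
Krt14 and Krt16: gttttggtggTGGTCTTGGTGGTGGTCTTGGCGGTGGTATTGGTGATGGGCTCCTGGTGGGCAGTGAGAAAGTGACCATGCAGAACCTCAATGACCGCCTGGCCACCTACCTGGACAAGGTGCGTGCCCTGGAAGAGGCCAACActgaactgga
The run lies in coding sequence. Reads from such shared stretches cannot be told apart between the genes, so small parts of the values of Krt14 and Krt5 are uncertain. Krt10 is overlapped by the antisense gene Gm11940 and Krt5 by the microRNA gene Gm44323, and the strand of reads is not stated to have been used.

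The basal keratins appeared in skin from E18.5 on and were highest at P21. Krt5 was at the floor in both E14.5 libraries and in E18.5 replicate 1, and at 8.85 in E18.5 replicate 2. It stood at 7.86, 11.55 and 10.23 at P2, at 8.60 and 11.70 at P8, and at 16.13 and 16.00 at P21. The P21 libraries lie above all 9 others, and the libraries of E18.5, P2 and P8 overlap.

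Krt14, the partner of Krt5 in the filament, was at the floor in both E14.5 libraries, and at 6.58 and 8.09 at E18.5. At P2 it was at the floor, 12.03 and 11.05, at P8 9.56 and 12.05, and at P21 16.71 and 16.50. The value of E18.5 replicate 1 came from the short transcript alone, while at P21 the coding transcript by itself averaged 16.59.
Krt15 was at the floor in both E14.5 libraries, in E18.5 replicate 1 and in P2 replicate 1. Its other levels were 9.07 at E18.5, 12.10 and 9.76 at P2, 8.77 and 12.90 at P8, and 16.54 and 16.38 at P21. In P2 replicate 1, therefore, Krt5 was above the floor without Krt14 or Krt15.

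The suprabasal pair followed another course. Krt1 was at the floor in both E14.5 libraries and in E18.5 replicate 1, and at 10.06 in E18.5 replicate 2. It reached 10.47, 10.42 and 8.63 at P2, 5.78 and 8.62 at P8, and 10.08 and 11.54 at P21. Krt10 was at 7.04 and the floor at E14.5, at 6.92 and 9.95 at E18.5, at 10.47, 10.84 and 9.21 at P2, at 5.83 and 9.63 at P8, and at 10.23 and 11.51 at P21. For both genes the P2 and P21 libraries overlap, and P8 replicate 1 is the lowest library after E18.5.

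**Figure D1:**
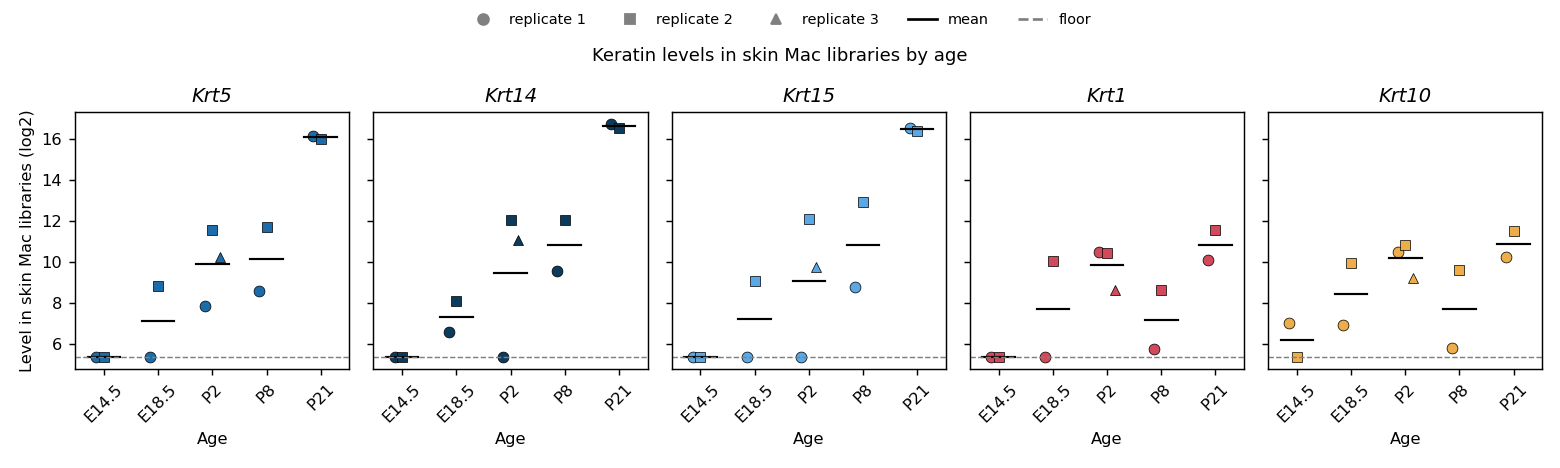
Level (log2) of each keratin in the 11 skin Mac libraries by age, with 1 point per library, a bar at the group mean and a dashed line at the floor of 5.37. Krt5, Krt14 and Krt15 stand between 16.00 and 16.71 at P21, above every earlier library, while Krt1 and Krt10 reach similar levels at P2 and P21.

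Levels of different genes were next compared per kilobase of transcript. This assumes that the authors' values were not already scaled by length, which the sources used here do not say. In the P21 skin libraries the coding transcript of Krt14 ranked the 7th, Krt15 the 9th and Krt5 the 15th highest of 22704 and 23482 transcripts above the floor, in both libraries alike. On this per-length log2 scale Krt14 stood at 15.92 and 15.73, and Krt10 at 9.17 and 10.45. Krt10 ranked 2117 and 630, and Krt1 ranked 2910 and 747. On this scale Krt14 was thus among the most abundant RNAs of these libraries, which are labelled as macrophages.
The P2 libraries differed in order, again per length. In P2 replicate 1 Krt10 stood at 9.40, Krt1 at 9.18 and Krt5 at 6.72, with the coding transcripts of Krt14 and Krt15 at or under the floor. In P2 replicate 2 the basal keratins stood above the suprabasal pair, with Krt15 at 11.28, Krt14 at 10.75, Krt5 at 10.42, Krt10 at 9.78 and Krt1 at 9.12. P2 replicate 3 likewise had Krt14 at 10.08, Krt5 at 9.09 and Krt15 at 8.95 above Krt10 at 8.15 and Krt1 at 7.33, so 1 of the 3 libraries of P2 had the suprabasal pair on top.

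A test over the 5 ages within skin asked whether the levels changed with age (limma, F test). Krt5 (adjusted p = 0.0024), Krt14 (adjusted p = 0.00689) and Krt15 (adjusted p = 0.0138) passed, with age means that ranged over 10.70, 11.23 and 11.09 log2 units. Of all 12022 genes tested, 10.9% passed. Krt1 (range 5.44, adjusted p = 0.0936) and Krt10 (range 4.67, adjusted p = 0.110) did not pass. The call of Krt15 was lost without P21 replicate 1 (adjusted p = 0.0704) or replicate 2 (adjusted p = 0.0655), and those of Krt14 and Krt15 when no gene was filtered out (adjusted p = 0.0782 and 0.119). Krt1 passed without either E18.5 replicate 1 (adjusted p = 0.0392) or replicate 2 (adjusted p = 0.0354), and with no floor (adjusted p = 0.0455).

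Late postnatal skin (P8 and P21) was then set against embryonic skin (E14.5 and E18.5). The 3 basal keratins rose, Krt5 by 6.87 ± 0.93 log2 units (SE, adjusted p = 7.41e-04), Krt14 by 7.35 ± 1.18 (adjusted p = 0.00207) and Krt15 by 7.35 ± 1.32 (adjusted p = 0.00421). Of all genes, 11.7% were called in this comparison and 8.43% were called higher. Differences of 2.46 ± 1.01 for Krt1 (adjusted p = 0.150) and 1.98 ± 0.92 for Krt10 (adjusted p = 0.201) did not pass. Without E18.5 replicate 2, the embryonic library with the highest keratin levels, Krt1 passed (adjusted p = 0.0414). For Krt5, Krt15 and Krt1, 3 of the 4 embryonic libraries lie at the floor, so the differences depend in part on where it is set, while E18.5 replicate 2 lies well above it for all 5 keratins.

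With the set of libraries as a covariate, the late differences were 7.68 ± 1.15 for Krt5, 8.03 ± 1.52 for Krt14 and 8.43 ± 1.66 for Krt15, and all 3 still passed. Within the larger set alone, Krt5 stood at 11.70 in the P8 library and at 16.13 in the P21 library, against 5.37 to 8.85 in the 4 embryonic libraries.

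Up to P8, single steps between neighbouring ages were mostly within the spread between libraries. From E14.5 to E18.5, from E18.5 to P2 and from P2 to P8, 0 of the 5 keratins were called by limma, with 0, 1 and 0 at an unadjusted p under 0.05, where 2.03%, 0.216% and 1.32% of all genes were called. From P8 to P21, Krt5 rose by 5.92 ± 1.32 (adjusted p = 0.0393), where 2.15% of all genes were called. Krt14 (5.80 ± 1.66, adjusted p = 0.127), Krt15 (5.63 ± 1.87, adjusted p = 0.199), Krt1 (3.61 ± 1.43, adjusted p = 0.308) and Krt10 (3.15 ± 1.30, adjusted p = 0.329) differed in the same direction without passing. All 5 keratins had an unadjusted p under 0.05 (limma) in this step. The call of Krt5 was lost in 7 of the 11 fits that left out 1 skin library, with adjusted p up to 0.382 without P8 replicate 1. It was also lost with the library set as a covariate (adjusted p = 0.0578), with no floor (adjusted p = 0.0754) and with no filter on low values (adjusted p = 0.177).

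**Figure D2:**
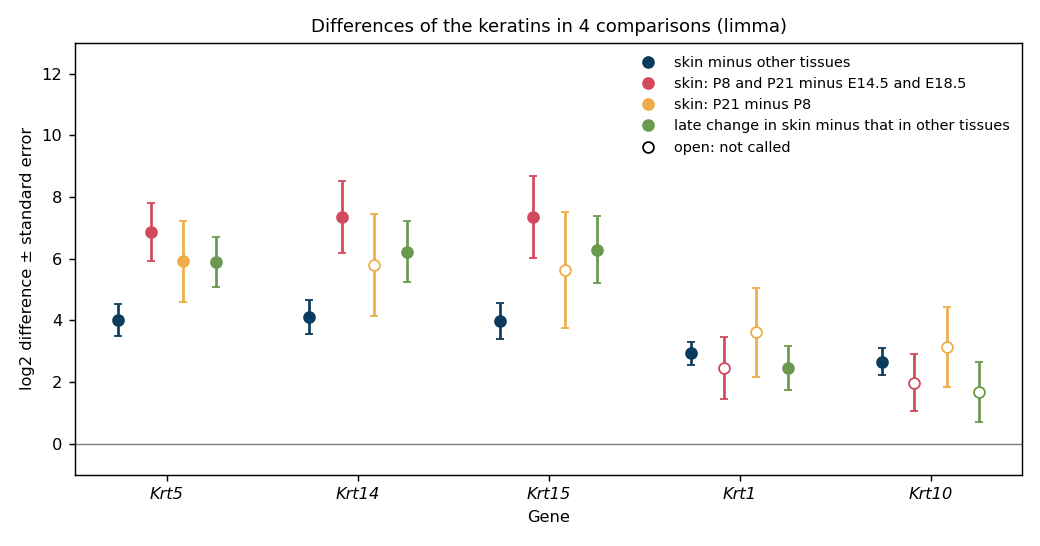
log2 differences (points) with standard errors (bars) of the 5 keratins in 4 comparisons, with filled points for genes called at an adjusted p under 0.05 and a difference of at least 1. Krt5, Krt14 and Krt15 lie near 4 between tissues and between 5.63 and 7.35 for the other comparisons, and Krt1 and Krt10 lie lower.

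Between tissues, all 5 keratins were higher in skin Mac than in Mac of brain, kidney, liver and lung as an average over E14.5 to P21. This did not hold at every age, since at E14.5 Krt5, Krt14, Krt15 and Krt1 were at the floor in all of these tissues, skin included. The differences in a fit with age and tissue over 48 libraries were 4.0 ± 0.52 for Krt5 (adjusted p = 1.61e-07), 4.10 ± 0.56 for Krt14 (adjusted p = 5.24e-07), 3.98 ± 0.58 for Krt15 (adjusted p = 2.10e-06), 2.94 ± 0.37 for Krt1 (adjusted p = 1.31e-07) and 2.66 ± 0.44 for Krt10 (adjusted p = 2.02e-05). Of 13860 genes tested, 7.51% were called. All 5 remained called without any 1 skin library. They remained called also without both P21 skin libraries, an alternative chosen after the data were seen, at 2.90 for Krt5, 2.98 for Krt14, 2.82 for Krt15, 2.37 for Krt1 and 2.28 for Krt10. Most libraries of the other tissues sit at the floor, where they have no spread, and this lowers the standard errors.

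The change with age in skin also differed from that in the other tissues. The late minus embryonic change was larger in skin by 5.89 ± 0.81 for Krt5 (adjusted p = 6.66e-06), 6.23 ± 0.99 for Krt14 (adjusted p = 5.62e-05) and 6.29 ± 1.07 for Krt15 (adjusted p = 1.59e-04). For Krt1 it was larger by 2.46 ± 0.71 (adjusted p = 0.0373), and for Krt10 the difference of 1.68 ± 0.96 did not pass (adjusted p = 0.525). Krt1 was at the floor in every library of the other tissues, so its difference is that of skin alone. Within skin alone it did not pass (2.46 ± 1.01, adjusted p = 0.150). The libraries at the floor have no spread, which lowers the standard error in this fit too. Of all genes, 4.63% were called. The call of Krt1 was lost in 5 of the 11 fits that left out 1 skin library, with the highest adjusted p of 0.397 without E18.5 replicate 1, and it was lost with a floor 1 log2 unit higher (adjusted p = 0.0677), with quantile normalization (adjusted p = 0.0727) and with array weights (adjusted p = 0.118).

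Outside skin, Krt1 was detected in the fewest libraries of the 5 genes. It was above the floor in 2 of 82 libraries, both of brain Mac at E12.5, at 5.64 and 5.87. Krt5 was above the floor in 14, Krt14 in 13 and Krt15 in 15 of the 82, and all 3 together in 13. Krt10 was above it in 53 of 82, between 5.41 and 8.68, where on average 69.7% of all genes were above the floor in a library. In 40 of those libraries Krt10 was the single keratin of the 5 that was detected. pMac showed no other of the 5 genes, and Krt10 lay between 5.56 and 7.06 in 12 of 13 libraries.

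The traces of the 3 basal keratins outside skin clustered at P21. In the 30 Mac libraries of E14.5 to P8 from brain, kidney, liver and lung, all 3 were above the floor in 1, lung P8 replicate 2, at 5.80 for Krt5, 5.66 for Krt14 and 5.84 for Krt15. Among the 7 Mac libraries of P21 from those tissues, all 3 were above the floor in 6. Krt5 ranged there from 7.06 to 7.91, Krt14 from 7.30 to 8.31 and Krt15 from 7.08 to 8.32. On average, 66.6% of all genes were above the floor in the 30 earlier libraries and 59.3% in the 7 of P21. Liver P21 replicate 1 had none of the 5, and it is 1 of the libraries with few detected transcripts, as are liver and lung P21 replicate 2.

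Set against the mean of the skin P21 libraries on the linear scale, these traces were small and alike. Krt5 came to between 0.195% and 0.350% (median 0.248%), Krt14 to between 0.158% and 0.318% (median 0.238%) and Krt15 to between 0.150% and 0.355% (median 0.207%). Krt1, which was much lower than the basal keratins in skin at P21, was at the floor in all 7 libraries, and Krt10 was above it in 3. The floor itself comes to 2.31% of the skin P21 level of Krt1, so a share of the size seen for the basal keratins was not detectable for it. Among other genes high in skin at P21, Cd207 was between the floor and 7.05 (median 6.22) in these 7 libraries and Epcam between the floor and 6.44 (median 5.81). These medians come to 0.281% and 0.450% of their skin P21 levels, where the floor comes to 0.156% and 0.332%. Trp63, the transcription factor of basal keratinocytes, and Krt17 were at the floor in all 7, but the floor comes to 4.15% and 9.82% of their skin P21 levels, so a smaller share could not have been seen. Of 17 measured basal keratinocyte genes, 3 to 11 were above the floor in these 7 libraries, against 17 in both skin P21 libraries. On average, 59.3% of all genes were above the floor in the 7, a share that lies within the range of these counts. The source of the traces was not tested.

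**Figure D3:**
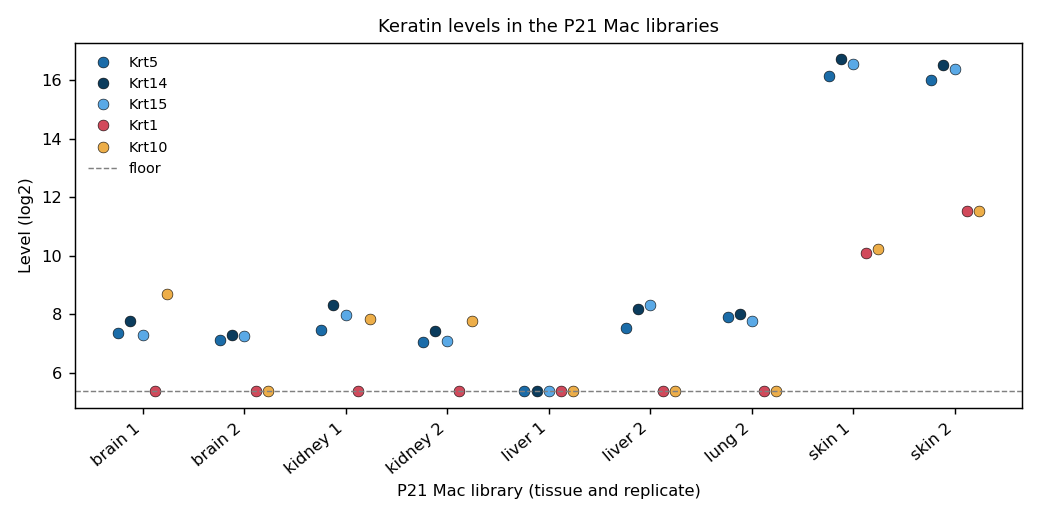
Level (log2) of the 5 keratins in each of the 9 Mac libraries of P21, with the floor dashed. In 6 of the 7 libraries from brain, kidney, liver and lung, Krt5, Krt14 and Krt15 lie between 7.06 and 8.32, and in skin between 16.00 and 16.71.

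A smaller group of early libraries also held the basal keratins. Among 20 Mac libraries of E10.25 and E10.5, all 3 were above the floor in 5, which were brain E10.5 replicate 2, limbs E10.25 replicate 2, limbs E10.5 replicate 2 and both liver E10.5 replicates. The highest levels among them were 6.79 for Krt5, 7.14 for Krt14 and 6.98 for Krt15. At E12.5, limbs replicate 2 held all 3, at 5.40, 5.45 and 5.77. EMP had no Krt5, Krt14 or Krt1 above the floor, Krt15 in 1 library at 5.63 and Krt10 in 3 of 6.

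**Figure D4:**
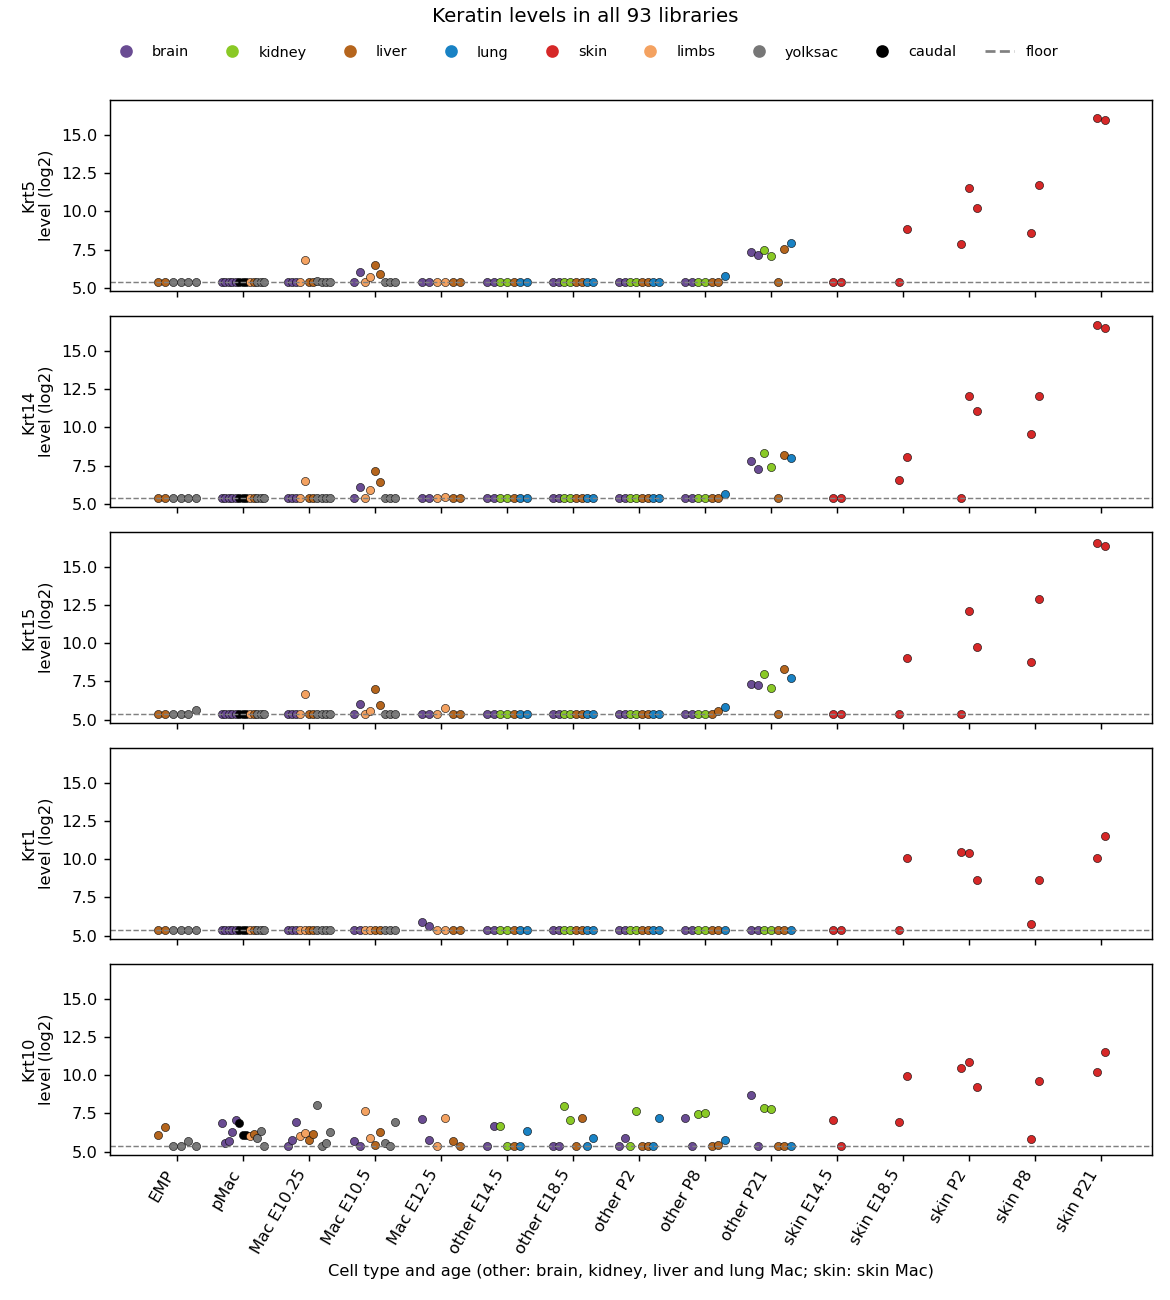
Level (log2) of each keratin in all 93 libraries, grouped by cell type and age and coloured by tissue, with the floor dashed. Krt1 leaves the floor outside skin in 2 brain libraries of E12.5, the basal keratins mainly at E10.5 and P21, and Krt10 in 53 of the 82 libraries.

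Partner keratins stood close together in gene level in libraries that held both. Krt5 and Krt14 were both detected in 7 skin libraries and 1 of them alone in 2 others, P2 replicate 1 (Krt5) and E18.5 replicate 1 (Krt14). Krt10 was detected without Krt1 in 2 skin libraries and in 51 of the 82 outside skin. Where both were detected, Krt14 minus Krt5 ranged from -0.76 to 0.96 in 7 skin libraries (median 0.50) and from -0.30 to 0.85 in 13 libraries of other tissues (median 0.18). Krt10 minus Krt1 ranged from -0.12 to 1.01 in 8 skin libraries (median 0.10). These differences are not per kilobase. The coding transcripts measure 1.698 kb for Krt14, 2.197 kb for Krt5, 2.094 kb for Krt10 and 2.455 kb for Krt1. Over the 11 skin libraries, Pearson's r of levels was 0.97 for Krt5 with Krt14, 0.98 for Krt5 with Krt15, 0.99 for Krt14 with Krt15 and 0.97 for Krt1 with Krt10. Between the basal and the suprabasal genes it ranged from 0.62 to 0.77. These values describe libraries that share their preparation and age, and genes at the floor together raise them.

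The genes with the most similar pattern were ranked by Pearson's r over the 11 skin libraries, among 11345 genes. For Krt5 they were Gata3 (r = 0.98), Dmkn and Anxa8 (both r = 0.96). For Krt14 they were Gata3 (r = 0.97), Serpinb5 and Pkp1 (both r = 0.96), and for Krt15 Sfn, Gata3 (both r = 0.97) and Ephb3 (r = 0.96). Krt1 was followed most closely by Ptgfrn (r = 0.93), Ak8 and Mycl (both r = 0.87), and Krt10 by Ptgfrn (r = 0.93) and Cd99l2 (r = 0.91). Over all 93 libraries, the mean level of the 5 keratins was followed most closely by Lgals7, Anxa8, Dmkn, Pkp1 and Col17a1 (r = 0.93 each, 14145 genes).

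Genes of basal keratinocytes moved with the basal keratins. Of 17 measured genes of a list of 20, 15 were higher and 1 was lower in skin at P8 and P21 than in embryonic skin. The median difference was 3.54 against 0.17 over all genes, of which 8.43% were called higher and 3.25% lower. The list was drawn up with earlier results of these data known, and it describes these libraries. Cldn1, a tight junction claudin, rose by 6.64 ± 0.40 (adjusted p = 1.55e-06), Perp, a desmosome-associated membrane protein, by 6.12 ± 0.88 (adjusted p = 0.00108), Col17a1, a hemidesmosome collagen, by 5.77 ± 1.16 (adjusted p = 0.0077) and Dsp, the desmosome plaque protein desmoplakin, by 5.61 ± 0.84 (adjusted p = 0.00131). Itga6, the hemidesmosome integrin subunit, was the 1 gene that fell, by 1.97 ± 0.37 (adjusted p = 0.00561), and it was named after its value was seen. From P8 to P21, 6 of the 17 rose and none fell, where 2.15% of all genes were called. In skin against the other tissues, 13 of 17 were higher and none was lower (median 1.31), where 7.51% of all genes were called.
The mean level of this list was 6.03 to 6.25 at E14.5, 6.45 and 7.29 at E18.5, 7.05 to 8.62 at P2, 8.38 and 8.62 at P8, and 11.61 and 11.80 at P21. Its members above the floor numbered 4 or 5 at E14.5 and 17 at P21. Trp63 lay between the floor and 7.52 (median 7.05) at P2, at the floor in both P8 libraries and at 9.85 and 10.07 at P21.

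Suprabasal and cornified layer genes moved less. Of 31 listed, 12 were measured and 11 tested. Against 8.43% of all genes, 4 of the 11 were called higher in late than in embryonic skin (median 1.33). These were Dmkn, the secreted protein dermokine (4.11 ± 0.69, adjusted p = 0.00271), the plakins Ppl (3.85 ± 0.72, adjusted p = 0.00522) and Evpl (2.99 ± 0.57, adjusted p = 0.00603), and the desmosomal cadherin Dsg1a (2.80 ± 0.77, adjusted p = 0.036). Of 3 other epidermal keratins measured from a list of 14, Krt17 (3.91 ± 0.89, adjusted p = 0.015) and Krt80 (2.19 ± 0.63, adjusted p = 0.0426) rose and Krt79 did not pass. No keratin of the hair list of 21 was among the genes measured. The 4 measured keratins of simple epithelia, Krt7, Krt8, Krt18 and Krt19, were at the floor in all 11 skin libraries.

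Langerhans cell genes rose and most macrophage genes fell in the same comparison. All 9 Langerhans cell genes rose in late against embryonic skin (median 8.0), where 8.43% of all genes were called higher. Cd207 rose by 9.52 ± 0.41 (adjusted p = 9.36e-08), and H2-Ab1, an MHC class II chain, by 8.89 ± 0.42 (adjusted p = 2.40e-07). Epcam and Cdh1 of this list are adhesion genes that epithelial cells also express. Of 14 macrophage genes 9 fell and 1, the transcription factor Spi1, rose (median -4.30), where 3.25% of all genes were called lower. Cx3cr1, the fractalkine receptor, fell by 6.55 ± 0.60 (adjusted p = 3.78e-05), and Mrc1, the mannose receptor CD206, fell by 5.77 ± 0.71 (adjusted p = 3.48e-04).
The Langerhans cell list averaged 10.19 and 10.96 at E18.5, 14.59 to 14.96 at P21 and 15.38 and 15.48 at P8. From P8 to P21, 0 of its 9 genes were called by limma, with 2 at an unadjusted p under 0.05. In that step 2.15% of all genes were called. Of the 14 macrophage genes, Adgre1 was called lower in it (-2.89 ± 0.62, limma, adjusted p = 0.0320) and 0 were called higher. In bulk libraries, a larger share of cells of a type and more RNA per cell cannot be told apart, and the part of other cells' RNA in the keratin levels was not tested.

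**Figure D5:**
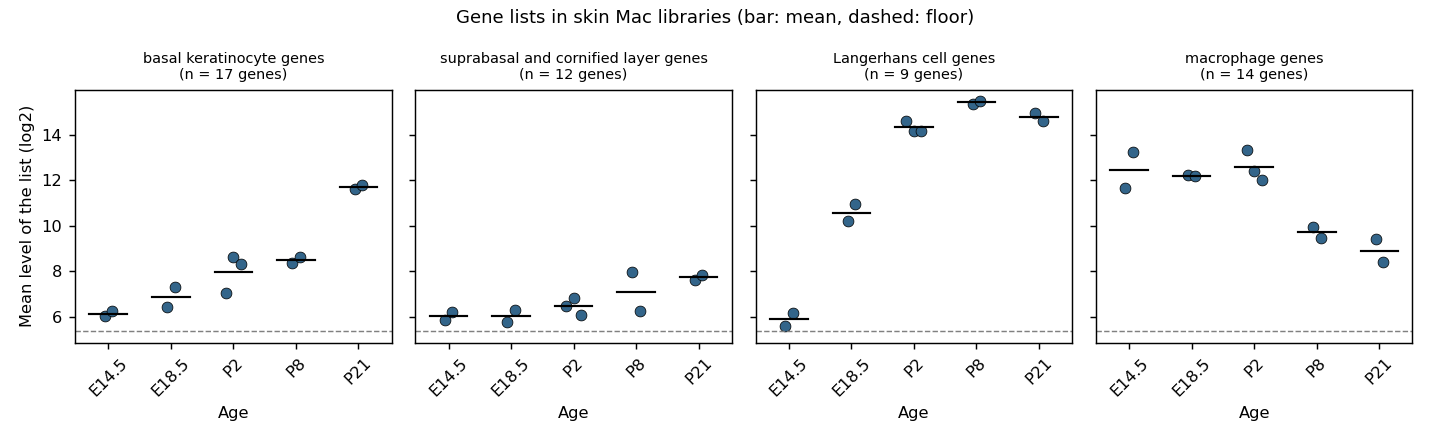
Mean level (log2) of 4 gene lists in the 11 skin Mac libraries by age, with 1 point per library, a bar at the group mean and the floor dashed. Basal keratinocyte genes are highest at P21 (11.61 and 11.80), Langerhans cell genes average 14.18 to 14.61 at P2 and 15.38 and 15.48 at P8, and macrophage genes are lower at P8 and P21 than before.

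Markers of other cells that a skin sort could hold were not called higher. Of 58 entries on 7 lists for fibroblasts, melanocytes, endothelium, T cells, mast cells, muscle and neural cells, 37 were measured and 15 were tested. In late against embryonic skin, 0 of the 15 were called by limma, where 11.7% of all genes were called. An unadjusted p under 0.05 was seen for 2. So few tested genes cannot show whether such cells were absent. The 9 measured fibroblast genes averaged 5.37 to 5.99 in the P8 and P21 skin libraries, with at most 2 above the floor. The 4 measured T cell genes averaged 5.37 to 5.59 in embryonic skin, 6.25 to 6.95 at P2, 5.37 and 7.70 at P8, and 6.23 and 7.79 at P21, with all 4 above the floor in P8 replicate 2 and P21 replicate 2. Their median difference between late and embryonic skin was 1.42, with 0 of 4 called by limma and 1 at an unadjusted p under 0.05, and their part in the keratin levels was not tested. Against other tissues, 7 of 9 hepatocyte genes, 5 of 8 erythroid genes and the endothelial cadherin Cdh5 were lower in skin, where 348 of 13860 genes tested were. On the lists for kidney and lung epithelium the genes higher in late skin were Epcam and Slc34a1.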

How the data were processed

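Values are for 93 SMART-Seq2 libraries of polyA RNA, assigned to 46 groups by the labels. The values are on a log2 scale, 1 per Ensembl transcript, normalized by the authors before deposit. Which normalization they used was not given in the sources used here, and the base was inferred from their range (0.836 to 19.0). The submitters' processing notes name Bowtie 1.1.1, DESeq2 and mm10 but give them no role. No counts were used, so depth and counting error are unknown.

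The floor is 0.5 above the highest of the libraries' 5th percentiles (2.32 to 4.87). Of 37521 transcripts, 36703 matched a gene in GENCODE M21, and 818 did not. A gene's level sums its transcripts' linear values above the floor, plus the floor. Genes at 6.37 or more in at least 2 libraries were tested with limma 3.58.1 (R 4.3.3) with an intensity trend, tested on simulated data, in fits of the 11 skin libraries or of 48 Mac libraries of E14.5 to P21. Adjusted p-values are Benjamini-Hochberg values over all genes tested, and a call needs one under 0.05 and a difference of at least 1. Sets of libraries were clustered on 2977 transcripts under the floor (60 and 33 libraries; median r 0.0322 within the larger, 0.514 within the smaller).

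The keratins and gene lists were chosen with earlier results of these data known. Named besides the 5 keratins are the 3 genes most correlated with each in skin, the 5 most correlated with their mean over all libraries, up to 4 called genes per list with the largest differences, and Cd207, Epcam, Csf1r and Adgre1. Trp63, Itga6, Spi1 and Krt79 were added after their values were seen. A gene that the rule names and a sequence are not reported here. Alternatives were another floor, filter, scaling or weighting, the replicate number as a block, the library set, and leaving out libraries.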

Additional observations from a re-analysis of the deposited data

Results flagged for a closer look

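The change of the keratins with age in skin differed from that in the other tissues by the test of the difference itself (limma, contrast of tissue and age). The late minus embryonic change in skin exceeded that in brain, kidney, liver and lung by 5.89 log2 units for Krt5, 6.23 for Krt14, 6.29 for Krt15 and 2.46 for Krt1. For Krt1 the other tissues were at the floor throughout, and the same difference within skin alone did not pass (limma, adjusted p = 0.150).

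In the 45 libraries that enter no comparison, EMP, pMac and Mac of E10.25 to E12.5, keratin RNA was above the floor. This held for Krt5 in 7, Krt14 in 6, Krt15 in 7, Krt1 in 2 and Krt10 in 35 of them.

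Among yolk sac Mac of E10.25, 1 of 4 libraries stood apart from the others for Krt5, at 5.46 against the floor of 5.37. Of 3 combinations of keratin and group that could be checked in this way, this was the 1 that stood apart. The other libraries of the group were at the floor and have no spread. Any value above the floor would therefore stand apart, and a chance rate of about 1 in 20 does not apply to it.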

How the results depend on the processing

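All 5 keratins kept their direction and call in skin against other tissues under the other 10 settings and the 11 fits without 1 skin library, and Krt5, Krt14 and Krt15 did so under 8 other settings and the 11 fits in late against embryonic skin and in the difference of the late change. The number of called genes moved by over 1.5 times in the following fits. Skin against other tissues had 1041 called genes and had 2005 with no floor, 2017 with array weights, and, both added after the data were seen, 464 without skin at P21 and 593 without all libraries of P21. The F test over ages had 1306 and had 715 with the library set as a covariate, and 686 to 1700 without 1 skin library. Late against embryonic skin had 1405 and had 699 with the library set, and 659 to 1842 without 1 library. E18.5 against E14.5 had 244 and had 395 with libraries centred on the median, 561 with quantile normalization, 142 with the library set, and 29 to 498 without 1 library. P2 against E18.5 had 26 and had 217 with array weights, and 2 to 55 without 1 library. P8 against P2 had 159 and had 12 with the library set, 372 with array weights, and 6 to 166 without 1 library. P21 against P8 had 259 and had 419 with array weights, and 0 to 322 without 1 library, with 0 without P21 replicate 1, P21 replicate 2 or P8 replicate 1 (limma; 1199, 993 and 972 genes at an unadjusted p under 0.05). The late change in skin against other tissues had 642 and had 1248 with array weights. The cause of these moves was not tested.

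With the replicate number as a block, 116 genes were called in E18.5 against E14.5, 10 in P2 against E18.5, 6 in P8 against P2 and 150 in P21 against P8. The numbers do not pair the libraries. Deviations of same-numbered skin libraries from their group means had r from -0.050 to 0.045 over 20 pairs, and 7 of 11 libraries were closest to one of their own number.

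The P8 against P2 difference of Krt5 (0.27) reversed to -0.072 with quantile normalization, -0.68 with array weights, -0.74 without P2 replicate 1 and -1.27 without P8 replicate 2 (range without 1 library -1.27 to 1.82). That of Krt14 (1.32) reversed to -0.40 with array weights and -0.73 without P2 replicate 1 (range -0.73 to 2.59), and that of Krt15 (1.76) to -0.094 without P2 replicate 1 and -0.30 without P8 replicate 2 (range -0.30 to 3.82). The P2 against E18.5 difference of Krt1 (2.12) reversed to -0.22 without E18.5 replicate 1 (range -0.22 to 4.47). None of these differences was called. The fit of the late change could not be made without the libraries of few detected transcripts, because it left no late lung library, and none of those libraries is of skin.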

Other observations

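Other epidermal keratins stood apart from the members in skin P8 replicate 1. Krt79, a keratin of the upper hair follicle, was at 13.96 there, at 6.48 in P8 replicate 2, at 9.84 in P2 replicate 1 and at the floor in the other 8 skin libraries. Krt17, a keratin of hair follicles and stressed epidermis, was at 12.87 in P8 replicate 1 and at 9.57 in replicate 2. The same library had Krt1 at 5.78 and Krt10 at 5.83. In it, 10 of 12 suprabasal and cornified layer genes were above the floor. That is near the share of all genes, on average 72.7% in a skin library. Krt79 was thus high in P2 replicate 1 and P8 replicate 1, in which Krt14 and Krt15 were lower than in the other replicates of their age.

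Keratins of simple epithelia were detected outside skin and not in it. Krt7 was above the floor in 42, Krt18 in 31, Krt8 in 25 and Krt19 in 10 of the 82 libraries outside skin, and all 4 were at the floor in the 11 skin libraries.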
